A study of Homo sapiens with 16 samples.

Results

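Cytochrome P450 enzymes are haem proteins that add oxygen to fats, sterols, vitamins and drugs. Their genes were taken as all symbols made of CYP, a family number, subfamily letters and a member number, which gave 56 genes of 63684 in the table of transcription start sites (TSS), with 351 of its 237274 distinct windows. A window is 2000 bp long and is centred on an annotated start. Symbols of pseudogenes, such as those that end in P, were not members. Many P450 genes that clear drugs and bile acid precursors are active in liver cells and silent in fibroblasts, whereas others, such as the sterol demethylase gene CYP51A1, serve functions that most cells need. The liver genes often stand in tandem clusters of close copies. Dimethylation of lysine 9 on histone H3 (H3K9me2) is a mark of silent chromatin and is known to lie over broad gene-poor and silent regions.

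The libraries came from BJ-5ta cells, an established human foreskin fibroblast line immortalized with the catalytic subunit of telomerase (hTERT), which all groups share. ΔLEO1 cells were a single CRISPR/Cas9 clone in which the first exons of LEO1 were targeted, and LEO1 is a subunit of the PAF1 complex that travels with RNA polymerase II. Wild-type and ΔLEO1 cells were grown in 10% serum, where they divide, or were held in 0.1% serum for 10 days to reach quiescence. ChIP DNA and input, the same kind of chromatin without the antibody step, were sequenced in 2 replicates of each state, which gave 16 libraries in 8 groups. The labels name the antibody only as H3, and the study's methods name it as H3K9me2, so the libraries are called ChIP here. Since ΔLEO1 is 1 clone, a genotype difference cannot be told apart from a difference of this clone, and nothing says that replicates came from separate cultures, so p-values measure the spread between these libraries. No RNA was part of these tables, and the words hepatic and broadly expressed come from general knowledge of the genes.

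The ΔLEO1 ChIP library in 10% serum of replicate A held 54 reads in the TSS table and was left out, so that group has 1 library. The other 7 ChIP libraries held 2153836 to 3696942 reads in this table and the 8 inputs 3267811 to 9238282. Over the windows of LEO1 itself, the 4 ΔLEO1 inputs had 14.4 to 18.6 reads per 1000000 summed reads of the library and the 4 wild-type inputs 19.6 to 26. These windows are centred on annotated starts and may cover part of the targeted exons, which was not examined. CPM below are also reads per 1000000, but with library totals adjusted by trimmed-mean (TMM) scaling. Reads in the peak table per read in the TSS table were 0.109 to 0.125 in wild-type ChIP libraries, 0.0876 to 0.104 in ΔLEO1 ChIP libraries and 0.0249 to 0.034 in inputs. The 10 fibroblast marker genes were all called lower in ChIP than in input (median log2 ratio −1.84), beside 35.9% of all genes, among them VIM (−3.16) and COL1A1 (−2.65). Of 11 measured hepatocyte markers 4 were called higher and 4 lower, near the shares of all genes (33.9% higher and 35.9% lower), and ALB, the serum albumin gene, had a log2 ratio of 0.38 ± 0.10 (SE).

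Promoters of 35 of the 56 genes had a sequence in RefSeq (build GRCh38.p14), 250 bases before to 50 after the start. The following 4 are shown because, among genes with a sequence, they are the lowest pair of the broadly expressed list and the highest pair of the hepatic list in ChIP over input at the start. They lie at chr4:186191317-186191616 (plus strand), chr4:107931299-107931598 (plus strand), chr7:99784135-99784434 (minus strand) and chr7:99679947-99680246 (minus strand), and each is written 5′ to 3′ on the strand of its gene with every CpG dinucleotide in capitals.
CYP4V2: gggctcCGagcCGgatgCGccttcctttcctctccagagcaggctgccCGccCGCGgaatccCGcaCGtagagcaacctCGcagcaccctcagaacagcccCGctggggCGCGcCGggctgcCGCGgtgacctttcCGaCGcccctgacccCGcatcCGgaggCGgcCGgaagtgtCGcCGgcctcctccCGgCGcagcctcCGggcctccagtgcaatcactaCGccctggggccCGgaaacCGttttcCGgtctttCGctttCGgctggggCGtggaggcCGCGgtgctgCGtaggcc
CYP2U1: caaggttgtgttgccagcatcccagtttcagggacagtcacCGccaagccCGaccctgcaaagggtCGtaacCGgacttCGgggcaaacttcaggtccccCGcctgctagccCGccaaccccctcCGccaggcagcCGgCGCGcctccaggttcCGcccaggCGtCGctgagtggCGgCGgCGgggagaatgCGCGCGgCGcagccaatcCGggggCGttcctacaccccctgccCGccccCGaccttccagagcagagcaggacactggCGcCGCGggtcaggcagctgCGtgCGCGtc
CYP3A4: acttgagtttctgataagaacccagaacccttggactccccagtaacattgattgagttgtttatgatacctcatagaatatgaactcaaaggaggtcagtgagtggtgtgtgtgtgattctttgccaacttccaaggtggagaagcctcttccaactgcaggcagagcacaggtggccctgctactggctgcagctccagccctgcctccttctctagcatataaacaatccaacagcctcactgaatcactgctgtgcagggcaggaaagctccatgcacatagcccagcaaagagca
CYP3A5: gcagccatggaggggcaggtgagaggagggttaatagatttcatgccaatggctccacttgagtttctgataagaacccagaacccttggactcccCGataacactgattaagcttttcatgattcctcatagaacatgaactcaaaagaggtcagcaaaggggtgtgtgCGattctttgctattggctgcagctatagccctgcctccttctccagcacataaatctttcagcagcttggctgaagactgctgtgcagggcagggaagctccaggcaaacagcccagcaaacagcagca
CYP4V2, a fatty acid hydroxylase gene known from an inherited retinal disease, has 36 CpG in these 300 bases. CYP2U1, another fatty acid hydroxylase gene, has 31. CYP3A4, the main drug-metabolizing P450 of adult liver, has 0 and its neighbour CYP3A5 has 2.

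At the window nearest to the RefSeq start, the hepatic genes carried more ChIP signal than input and most broadly expressed genes carried less. Of 19 hepatic genes measured there, 17 were called higher and 0 lower (edgeR quasi-likelihood test, Benjamini-Hochberg adjusted p under 0.05), against 39.2% of all 34858 start windows called higher and 37.5% called lower. Their median log2 ratio was 0.63 (0.27 to 1.44), beside 0.07 over all start windows. Of the 8 broadly expressed genes, 5 were called lower and 1 higher, with a median of −0.45 (−1.80 to 1.07). Among all 50 genes tested at this window, 26 were called higher and 12 lower. The ratio was above 0 in all 7 ChIP libraries for 15 genes, of which 9 were hepatic, and below 0 in all 7 for 11 genes, of which 0 were hepatic. This count of signs was not made over all start windows, so it has no background share. Values are relative to the typical gene of the table, which the scaling places near 0, so a ratio below 0 does not mean that the mark was absent.

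**Figure D1:**
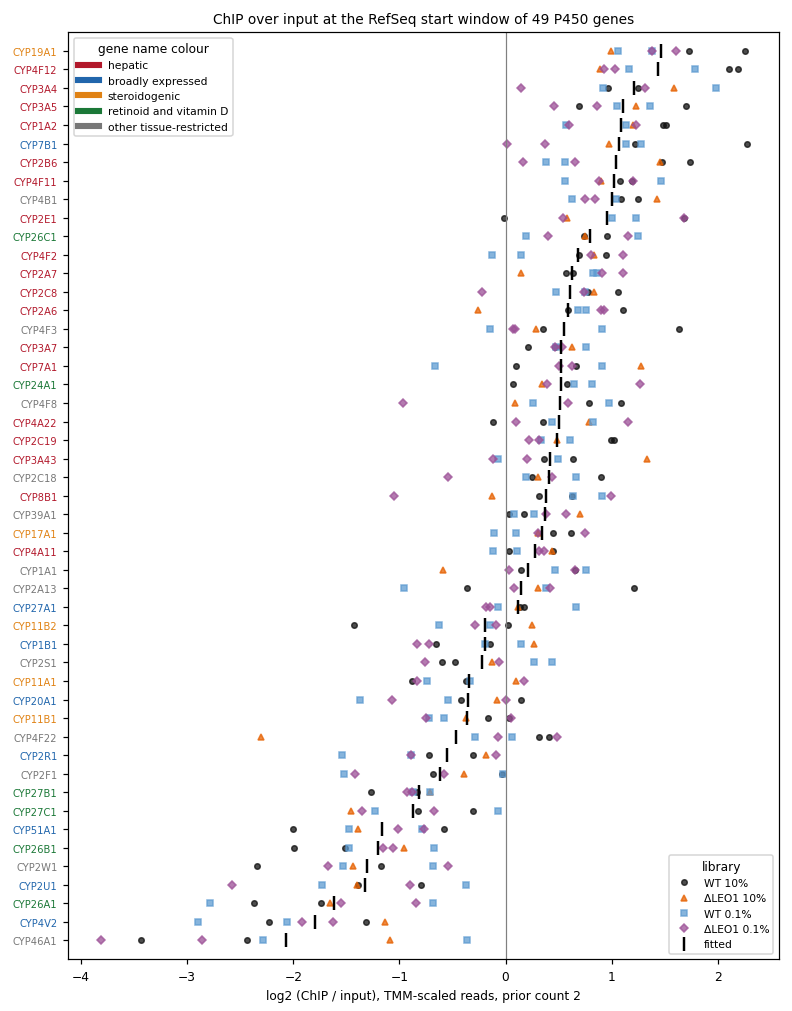
Log2 ratio of ChIP to input reads (x axis) at the RefSeq start window of 49 P450 genes (y axis), with 1 point for each of the 7 ChIP libraries and a vertical tick for the fitted value. Gene names are coloured by list, and the hepatic genes lie in the upper part, from 0.27 to 1.44, while CYP46A1 (−2.07), CYP4V2 (−1.80) and CYP26A1 (−1.62) are the lowest.

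CYP3A4 showed the pattern of the hepatic list. Its start window had 54.1 and 74.0 CPM, here relative to the reads in all start windows, in the wild-type ChIP libraries in 10% serum, 75.2 in ΔLEO1 in 10% serum, 85.2 and 51.9 in wild type in 0.1% serum, and 48.3 and 75.1 in ΔLEO1 in 0.1% serum. Its inputs ran from 19.5 to 43.4, below all 7 ChIP libraries, and the fitted log2 ratio was 1.21 ± 0.15 (SE, edgeR adjusted p 2.56e-14). CYP4F12, a fatty acid hydroxylase gene of liver and gut, had 36.3 to 77.6 CPM in ChIP and 8.66 to 28.3 in input (log2 ratio 1.44 ± 0.19). The next highest hepatic genes were CYP3A5 (1.11), CYP1A2 (1.08), which clears caffeine, and CYP2B6 (1.04). CYP2E1, the ethanol-oxidizing P450, stood at 0.96, although 1 of its 7 library ratios was at −0.01. The 2 hepatic genes not called here were CYP4A11 (0.27) and CYP8B1, the sterol 12-alpha-hydroxylase of bile acid synthesis, whose library ratios ran across 0.

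Of the broadly expressed genes, CYP4V2 was the lowest. It had 1.85 to 11.8 CPM in ChIP (median 5.0) and 20.5 to 38.0 in input, without overlap, and a log2 ratio of −1.80 ± 0.25 (edgeR adjusted p 1.48e-11). CYP51A1 had 9.41 to 26.0 in ChIP and 30.2 to 45.9 in input (log2 ratio −1.16 ± 0.20). CYP2U1 had 2.42 to 15.8 in ChIP and 18.4 to 41.1 in input (−1.33 ± 0.24). CYP2R1, the vitamin D 25-hydroxylase (−0.55), and CYP20A1, a P450 without a well-known substrate (−0.36), were also called lower. CYP1B1, an oestrogen and dioxin-responsive P450 that fibroblasts are known to express, was at −0.20 ± 0.17 and CYP27A1, the mitochondrial sterol 27-hydroxylase, at 0.12 ± 0.18, and neither was called. CYP7B1, the oxysterol 7-alpha-hydroxylase, went against its list with 31.5 to 98.8 CPM in ChIP, 18.4 to 34.2 in input and a log2 ratio of 1.07 ± 0.15. The start windows of 14 of 53 P450 genes overlap a window of another gene, whose reads cannot be separated from theirs. These partners are CYP51A1-AS1, CYP2U1-AS1 and CYP1B1-AS1 for the genes of those names, CYP26C1-DT for CYP26C1, SLC25A27 for CYP39A1, RN7SL718P for CYP2S1 and a CYP3A7 readthrough gene for CYP3A7. CYP2E1, CYP4F8, CYP4V2, CYP7B1, CYP20A1 and CYP26A1 overlap genes listed by Ensembl ID, and CYP2D6 overlaps 2 other genes.

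Genes with restricted roles in hormone and vitamin metabolism were spread over both ends. CYP19A1, the aromatase that makes oestrogens, had the highest ratio of all 50 genes, 1.46 ± 0.14 (adjusted p 3.34e-20), at the 98.6th percentile of all start windows. Its ChIP libraries had 55.6 to 104.0 CPM and its inputs 15.1 to 42.2. Summed over 7 windows of CYP19A1, the log2 ratio was 0.49, at the 74.5th percentile of all genes. The other 4 steroidogenic genes measured were not called (CYP17A1 0.34, CYP11B2 −0.19, CYP11A1 −0.34 and CYP11B1 −0.36). Of the 6 genes on the retinoid and vitamin D list, 4 were called lower and 2 higher. CYP26A1 and CYP26C1, both retinoic acid hydroxylases, are neighbours on chromosome 10 within 17.5 kb and lay on opposite sides, with log2 ratios of −1.62 ± 0.24 and 0.79 ± 0.17. CYP26B1, the third of these hydroxylases, was at −1.20, and CYP24A1, which breaks down vitamin D, was called higher at 0.52 ± 0.18. The lowest ratio of all belonged to CYP46A1, the cholesterol 24-hydroxylase of neurons, with 0 to 13.5 CPM in ChIP and 18.2 to 35.3 in input (−2.07 ± 0.27).

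P450 genes with at most 9 CpG in the promoter mostly had ratios above 0, and those with more mostly below. Of the 34 genes with both a sequence and a ratio, 16 had at most 4 CpG in the 300 bases, and all 16 had a fitted log2 ratio above 0 (median 0.60). Over all 16289 genes with both values, the median ratio was 0.42 in the class with 0 to 4 CpG, −0.04 with 5 to 9, −0.62 with 10 to 19 and −1.19 with 20 or more. The 13 hepatic promoters held 0 to 7 CpG (median 2) and the 6 broadly expressed ones 16 to 36 (median 30.0). The 3 P450 genes with 5 to 9 CpG had a median of 0.96 and the 6 with 10 to 19 a median of −1.04, so the P450 medians did not follow the order of the classes. In the class with 20 or more CpG, the 9 P450 genes had a median of −0.36, and CYP26C1 (29 CpG, log2 ratio 0.79), CYP39A1 (23 CpG, 0.37) and CYP27A1 (29 CpG, 0.12) were above 0. Across the 34 genes Spearman's rho between CpG number and ratio was −0.70 (Pearson's r −0.64), and across all genes −0.47 (Pearson's r −0.45). These correlations are across genes of the same libraries, which are not independent replicates, and base composition also affects how well fragments are sequenced. The letters TATAAA, read on both strands, occurred in 9 of the 13 hepatic promoters, in 0 of the 6 broadly expressed ones and in 9.68% of all 16289.

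**Figure D2:**
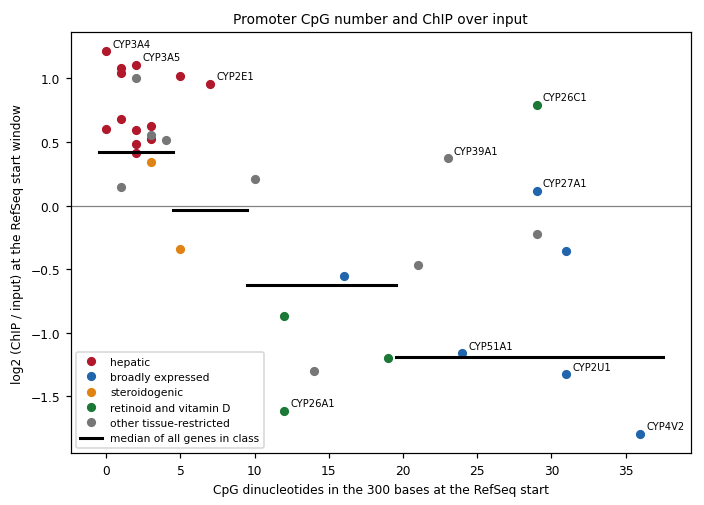
Number of CpG dinucleotides in 300 promoter bases (x axis) and log2 ratio of ChIP to input at the RefSeq start window (y axis) for 34 P450 genes, coloured by list. Black bars give the median of all genes with 0 to 4, 5 to 9, 10 to 19 and 20 or more CpG (0.42, −0.04, −0.62 and −1.19), and all 16 P450 genes in the lowest class lie above 0.

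Several genes had less signal at the RefSeq start than farther into the gene. Windows at other annotated starts of the same genes were compared with it in a fit of single windows, in which 171 of 265 P450 windows were called higher and 34 lower, beside 36.4% and 38.7% of all 206148 windows. Many of these windows overlap and count the same reads again, and of the 125 that do not overlap 86 were called higher and 12 lower. The median log2 ratio of P450 windows in this fit was 0.68, and that of all windows −0.04. The fit has its own scaling, so its zero is not that of the start-window fit above. The start of CYP3A4 was at 1.47 here and at 1.21 there, and that of CYP1B1 at 0.06 here and −0.20 there. For CYP4V2 the start window was at −1.59 ± 0.26 and the windows 4521 and 12814 bp downstream at 0.45 ± 0.19 and 0.36 ± 0.20. CYP51A1 was at −0.92 ± 0.21 at its start and at 0.64 ± 0.17 and 0.75 ± 0.17 at windows 10959 and 17355 bp downstream. CYP46A1 was at −1.88 ± 0.28 at its start and at 1.49 ± 0.14 at a window 21699 bp downstream. CYP1B1 was at 0.06 at its start and at 0.91 and 0.93 inside the gene. Of the 6 broadly expressed genes with another window, 4 had a start below all others and 2 a start above all others, and 9 of these 10 other windows had a ratio above 0. Of 15 hepatic genes with another window, 7 had a start below all others and 6 a start above all others. Hepatic start windows had a median of 0.93 and the 24 other windows a median of 1.01, with all 24 above 0. A gene with 1 other window must have a start below or above all others, however small the difference. For CYP27A1 the start (0.37 ± 0.18) and the other window (0.29 ± 0.18) differed by less than their SE. These counts of sides and signs were not made over all genes, so no background share stands beside them. CYP3A4 had its highest value at the start (1.47 ± 0.15) and 0.16 ± 0.19 at a window 16362 bp downstream.

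**Figure D3:**
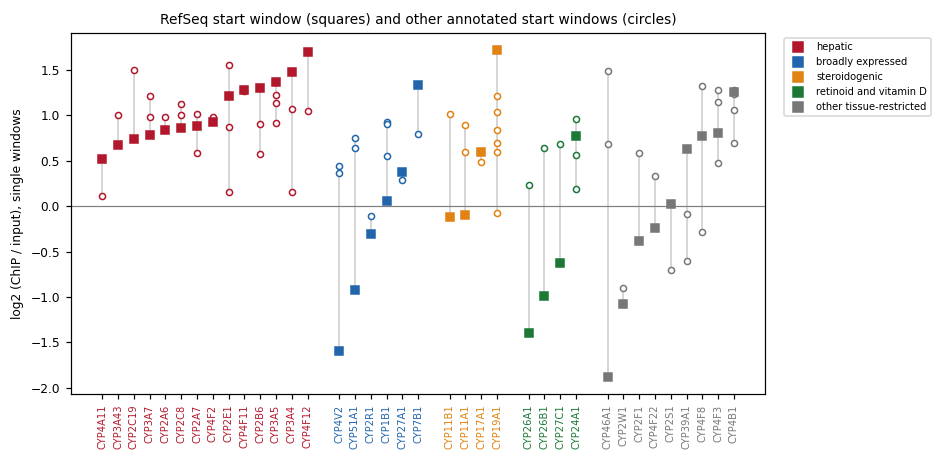
Log2 ratio of ChIP to input (y axis) of the RefSeq start window (filled squares) and of the other non-overlapping annotated start windows (open circles) of each P450 gene that has both, grouped by list (x axis). Values are from the fit of single windows. CYP4V2, CYP51A1, CYP26A1, CYP26B1 and CYP46A1 have a start below 0 under other windows above 0, while every hepatic square lies above 0.

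Sums over all windows of a gene include both kinds of window. The hepatic and broadly expressed medians lay closer together than at the start windows, and the cause was not tested. These sums have their own scaling, so levels are not compared between fits. CYP1A2, which has 1 window, was at 0.85 as a sum, 1.08 in the fit of start windows and 1.34 in that of single windows. Of 53 genes with reads, 23 were called higher and 13 lower, beside 33.9% and 35.9% of all 57545 genes, and the median log2 ratio was 0.19 against 0.02. With library totals in place of trimmed-mean (TMM) scaling the split was 28 higher and 8 lower. With totals of the peak table as library sizes, under which the median of all genes was −1.39, it was 0 higher and 53 lower, so the direction against input holds relative to the typical gene. Of 19 hepatic genes 15 were called higher and 0 lower (median 0.53), and of 8 broadly expressed genes 1 was called higher and 5 lower (median −0.39). The sums of CYP27B1 and CYP17A1 also cover windows of METTL1 and WBP1L. The highest sums belonged to CYP4F12 (0.86), CYP4F11 (0.85), CYP1A2 (0.85), CYP4B1 (0.68), a lung fatty acid hydroxylase, and CYP3A5 (0.67). The lowest belonged to CYP2W1 (−1.54), CYP2U1 (−1.54), CYP26A1 (−0.89), CYP27B1 (−0.81), the vitamin D 1-alpha-hydroxylase, and CYP2S1 (−0.77). CYP2D6, CYP2D7 and CYP21A2 had 0 reads in all 16 libraries, inputs included, so no level can be given. These 3 genes also have windows on alternate contigs, where none of the 18975 windows had a read, and primary windows of all genes of that kind were empty in 44.9% of cases against 1.21% for other genes. Close copies such as CYP2A6 and CYP2A7, CYP4A11 and CYP4A22, or the CYP3A genes may share or lose reads, so their single values are less certain than their cluster sums.

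Summed over each list, the hepatic genes had log2 ratios of 0.72 and 0.73 in wild type in 10% serum, 0.60 in ΔLEO1 in 10% serum, 0.56 and 0.46 in wild type in 0.1% serum, and 0.39 and 0.43 in ΔLEO1 in 0.1% serum (mean 0.56 ± 0.14, SD, n = 7). The broadly expressed genes lay between −0.33 and −0.03 in these libraries (mean −0.17 ± 0.10, SD, n = 7), without overlap with the hepatic sums. Reads in peaks per read at start sites were likewise highest in wild type in 10% serum (0.116 and 0.125) and lowest in ΔLEO1 in 0.1% serum (0.0876 and 0.0912), and the part of this library difference in the sums was not tested. The summed fibroblast markers were lowest in wild type in 10% serum and highest in ΔLEO1 in 0.1% serum, at −1.65 and −1.65 in wild type in 10% serum, −1.45 and −1.57 in wild type in 0.1% serum, −1.22 in ΔLEO1 in 10% serum, and −1.13 and −1.07 in ΔLEO1 in 0.1% serum. Over the 7 libraries the CYP4F cluster on chromosome 19 gave 0.21 to 0.85 and the CYP3A cluster on chromosome 7 gave 0.31 to 0.77. The CYP1A cluster (0.077 to 0.80) and the cluster of CYP4A, CYP4B, CYP4X and CYP4Z genes (0.0078 to 0.51) were also above 0 throughout. Sums of the CYP2A, CYP2B, CYP2F and CYP2S cluster (−0.10 to 0.30), CYP11B (−0.57 to 0.17) and CYP26 (−0.87 to 0.38) ran across 0. These cluster sums were not tested.

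**Figure D4:**
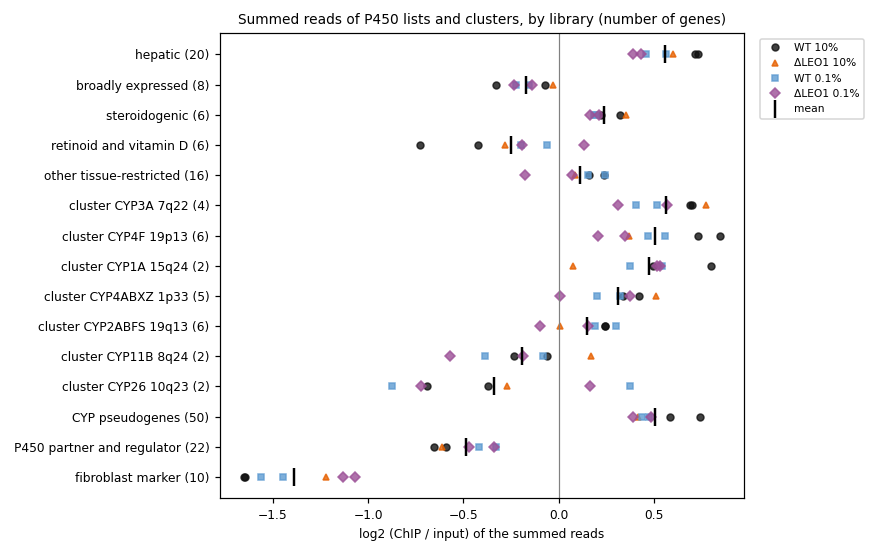
Log2 ratio of ChIP to input of summed reads (x axis) for lists and clusters of P450 genes and for comparison lists (y axis, number of genes in brackets), with 1 point per library and a tick at the mean of 7 libraries. Hepatic sums (0.39 to 0.73) and broadly expressed sums (−0.33 to −0.03) do not overlap, and the fibroblast markers lie lowest, at −1.65 to −1.07.

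Whether loss of LEO1 changed the ChIP signal of P450 genes relative to other genes in quiescence was asked with gene sums in 0.1% serum. The scaling places the typical gene near no change (median log2 fold change 0.0042), here and in the other genotype and serum comparisons. A shift shared by all genes is therefore removed. The paper, with spike-in scaling, reports a global increase of H3K9me2 in quiescent ΔLEO1 cells, which this test could not see. None of 52 P450 genes was called by edgeR's quasi-likelihood test, beside 1.06% of all 50774 genes. At an unadjusted p under 0.05, 1 P450 gene was higher and 7 lower, beside 5.75% and 6.67% of all genes. DESeq2 also called 0 P450 genes, but it called 0.00197% of all genes here, 0.0217% over both sera and 0% in the other genotype and serum comparisons and between inputs, so its counts of 0 say nothing particular about P450 genes. With totals of the peak table as library sizes, under which the median of all genes was 0.30, 5 of 52 were called and all 5 were higher (CYP19A1, CYP2E1, CYP2R1, CYP4F2 and CYP51A1), beside 7.56% of all 52513 genes called higher at this setting, a share near the background. The largest differences were in CYP2R1 and CYP7B1. CYP2R1 had 13.7 and 11.2 CPM in wild type and 22.1 and 23.9 in ΔLEO1, a log2 fold change of 0.80 ± 0.26 (adjusted p 0.0972). CYP7B1 had 34.3 and 31.4 in wild type and 22.1 and 18.6 in ΔLEO1, a log2 fold change of −0.64 ± 0.22 (adjusted p 0.127). The next highest were CYP20A1 (0.61 ± 0.38), which turned to −0.13 without ΔLEO1 replicate A, and CYP4F22, a skin lipid hydroxylase (0.52 ± 0.29). At the low end CYP4V2 was at −0.57 ± 0.23, and its inputs were also lower in ΔLEO1 (−0.44 ± 0.12, adjusted p 0.228). CYP8B1 was at −0.54 ± 0.33 and CYP17A1 at −0.54 ± 0.24 (adjusted p 0.515 and 0.312). CYP2C8 and CYP2C19, both drug-metabolizing, had log2 fold changes of −0.43 ± 0.18 and −0.44 ± 0.22 (adjusted p 0.289 and 0.37), with input differences of 0.14 and 0.05.

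Over both sera, 1 of 52 genes was called, beside 1.86% of all genes, so the share was close to the background. With peak-table totals as library sizes there were 7 calls of 52, all higher, beside 7.99% of all genes called higher at this setting, and CYP4F12 was not among them. CYP4F12 had 50.3 and 43.9 CPM in wild type in 10% serum, 20.9 in ΔLEO1 in 10% serum, 31.5 and 37.7 in wild type in 0.1% serum, and 32.2 and 24.6 in ΔLEO1 in 0.1% serum. The groups overlapped in 0.1% serum, and the log2 fold change was −0.66 ± 0.18 (edgeR adjusted p 0.0187). It was not called in 0.1% serum alone (−0.23 ± 0.20) or in 10% serum alone, where ΔLEO1 has 1 library (−1.10 ± 0.29, adjusted p 0.0798). The call was lost without wild-type replicate A in 10% serum (adjusted p 0.0845), without wild-type replicate B in 0.1% serum (0.0858), without ΔLEO1 replicate B in 0.1% serum (0.0699) and with DESeq2, and the adjusted p ranged from 0.0169 to 1 over all alternatives. Its inputs differed by 0.01 ± 0.16. CYP1A1, the dioxin-induced P450 (−0.73), CYP8B1 (−0.55), CYP7A1, the rate-limiting enzyme of bile acid synthesis (0.58), CYP4A22 (0.50) and CYP20A1 (0.47) had the other largest values, and none was called. In 10% serum alone 0.0591% of all genes and no P450 gene was called (2 higher and 3 lower at an unadjusted p under 0.05, and 0 of all genes with DESeq2), and CYP1A1 (−1.32 ± 0.51), CYP2A6 (−0.65), CYP7A1 (0.89), CYP4X1 (0.68) and CYP4A22 (0.66) differed most beside CYP4F12. Between inputs 0.0628% of all genes and no P450 gene was called, and DESeq2 called 0 of all genes. At an unadjusted p under 0.05, 1 P450 gene was higher and 1 lower between inputs, beside 2.74% and 3.31% of all genes.

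Serum withdrawal gave no called P450 gene in wild type, beside 0.534% of all genes, and DESeq2 called 0 of all genes. At an unadjusted p under 0.05, 2 P450 genes were higher and 3 lower, beside 5.37% and 5.64% of all genes. CYP20A1 had the lowest value without passing the test, with 12.4 and 8.53 CPM in 10% serum and 5.72 and 4.19 in 0.1% serum (log2 fold change −0.87 ± 0.37, edgeR adjusted p 0.346). CYP4F22 (−0.68) and CYP4F2 (−0.47), a vitamin K and vitamin E hydroxylase, followed. At the other end were CYP17A1, the steroid 17-alpha-hydroxylase (0.54 ± 0.25), CYP26A1 (0.48) and CYP7A1 (0.45), and the last 2 turned negative without wild-type replicate A in 0.1% serum. In ΔLEO1 the 10% serum group is 1 library, and the fit assumes that it varies like the other groups, which supply the spread. No P450 gene was called there by edgeR (0.284% of all genes, and 1 P450 gene higher and 2 lower at an unadjusted p under 0.05), DESeq2 called 0 of all genes, and CYP1A1 (0.98 ± 0.53), CYP2R1 (0.83 ± 0.37), CYP2A6 (0.57), CYP7B1 (−0.69 ± 0.29), CYP20A1 (−0.58) and CYP4B1 (−0.52 ± 0.19) lay farthest out. The test of whether the serum effect differed between genotypes rests on the same single library. It called 0% of all genes and no P450 gene with either tool, and 3 P450 genes had an unadjusted p under 0.05. The largest such differences were in CYP2R1 (1.22 ± 0.46), CYP1A1 (1.19 ± 0.61), CYP4F12 (0.87 ± 0.36), CYP17A1 (−1.0 ± 0.42), CYP26A1 (−0.77) and CYP2S1 (−0.73).

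**Figure D5:**
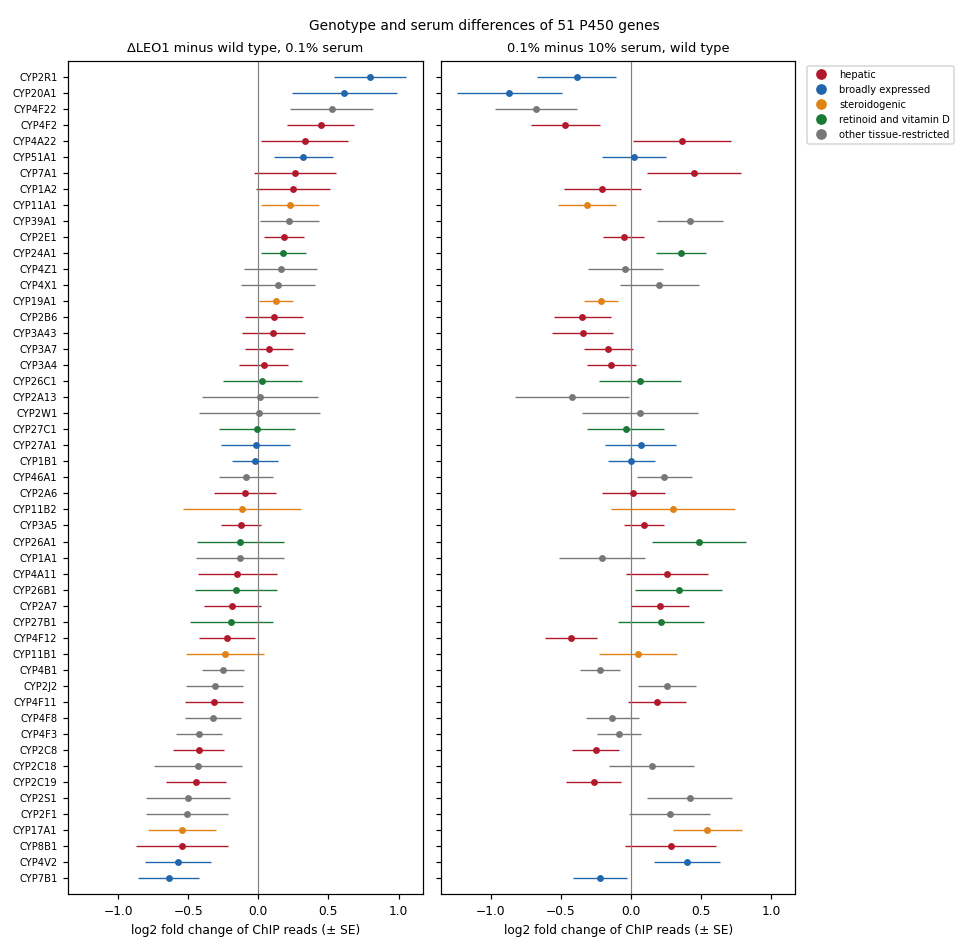
Log2 fold change of ChIP reads (x axis, bars are SE) of 51 P450 genes (y axis) for ΔLEO1 against wild type in 0.1% serum on the left and for 0.1% against 10% serum in wild type on the right, coloured by list. Values run from −0.64 to 0.80 on the left and from −0.87 to 0.54 on the right, and 0 genes were called in either comparison.

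Single windows gave no call either. In the fit of single windows, 0 of 241 P450 windows were called for genotype in 0.1% serum (0.392% of all windows) or for serum in wild type (0.25%), with smallest edgeR adjusted p of 0.116 and 0.0961. At an unadjusted p under 0.05, 13 windows were higher and 8 lower for genotype, beside 10.9% of all windows in either direction. For serum 9 were higher and 25 lower, beside 9.52% of all windows. Many of the 241 windows overlap and count the same reads again, and 115 of them do not overlap. At the RefSeq start windows, 0 of 43 were called for genotype in 0.1% serum (0.351% of all) or serum in wild type (0.25%), with smallest edgeR adjusted p of 0.289 and 0.262. Of the 43, 3 and 6 had an unadjusted p under 0.05, and the share of all start windows under that limit was not counted.

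The peak table held 22 regions whose nearest gene was a P450 gene, of 16092 in all. Their median log2 ratio of ChIP to input was 1.58 (0.96 to 2.33), beside 1.55 over all peaks, which were chosen for their signal in these libraries. The highest was a region in an LTR12C element, at −20312 bp from the start of CYP4B1, with 15.4 CPM in ChIP and 3.07 in input on average (log2 ratio 2.33). CYP19A1 had 3 such regions, and one of them lay 661 bp from its start (log2 ratio 1.90), overlapping the start window described above. One in an intron of CYP46A1, 20859 bp downstream (1.61), overlaps the high window of that gene. Of the 22, 6 were nearest to CYP26B1, the closest of them at −65554 bp from its start. The 4 nearest to CYP2C18 and CYP2C19 all lay in LINE or LTR repeats (1.08 to 1.68). CYP2E1 and CYP4F8 had 1 each over an exon, and CYP4F12 had 1 in an intron. None of the 22 was called for genotype in 0.1% serum (0.0621% of all peaks, smallest edgeR adjusted p 0.454) or for serum in wild type (0% of all peaks, 0.74). Of the 22, 2 and 0 had an unadjusted p under 0.05, and the share of all peaks under that limit was not counted.

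A list of 22 partner and regulator genes of the P450 system also held TBXAS1 and PTGIS, P450 enzyme genes without a CYP symbol. Of the 22, 13 were called lower and 3 higher in ChIP than in input on gene sums (median log2 ratio −0.47), beside 35.9% and 33.9% of all genes. The electron-transfer genes POR (−0.36), FDX1 (−1.54), FDX2 (−1.76) and FDXR (−0.85) were called lower. CYB5A, the gene of cytochrome b5 and also an electron-transfer gene, went the other way. The 3 called higher were CYB5A (0.28), HNF4A (0.37) and NR1I2 (0.33), of which the last 2 encode the liver factor HNF4-alpha and the drug sensor PXR. AHRR, the repressor of the dioxin receptor, was the only one of the 19 tested that was called for genotype in 0.1% serum, beside 1.06% of all genes, and is named after its values were seen. It had 66.4 and 53.1 CPM in wild type and 40.2 and 33.6 in ΔLEO1 (log2 fold change −0.67 ± 0.17, edgeR adjusted p 0.0137). It was called under 6 of 14 alternatives (adjusted p 0.0107 to 1, and 1 with DESeq2), and the call was lost without wild-type replicate A (0.435) or without ΔLEO1 replicate A (0.073) or B (0.156). Over both sera it was not called (−0.32 ± 0.15), and its inputs were also lower in ΔLEO1 (−0.31 ± 0.10, adjusted p 0.478).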

How the data were processed

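ChIP and input DNA were sequenced from wild-type and ΔLEO1 BJ-5ta cells in 10% and 0.1% serum, with replicates A and B. The authors deposited raw read counts, whole numbers without scaling, for windows around annotated starts and for merged peaks. Per the submitters' processing notes bcl2fastq 2.20.0.422, STAR 2.7.10a and HOMER were used with the builds hg38 and dm6. The tables hold no fly contig, so the study's spike-in scaling was not used here. All columns were assigned from their names, and the group of each library came from the labels.

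The P450 genes and all gene lists were chosen with earlier results of these data known. Windows of distinct coordinates were thinned to a non-overlapping set in order of start, and their counts were summed per symbol (150 windows for the 56 P450 genes). The window nearest to the RefSeq start, within 1000 bp, was added after the data were seen. Counts were tested with edgeR 4.0.16 (filterByExpr with a minimum count of 10, TMM, quasi-likelihood F-test, 1 coefficient per group, two-sided), with Benjamini-Hochberg adjustment over all features and calls at adjusted p under 0.05. ChIP over input used 7 ChIP and 8 input libraries in 1 fit, and the genotype and serum comparisons used the 7 ChIP libraries. Ratios per library set a ChIP library against the input of its group and letter with a prior count of 2. Depth was 1077899 to 1875574 summed reads per ChIP library and 1439258 to 3620336 per input, and intervals cover no more than the spread of these libraries. The scripts were tested on simulated data. Named genes were every broadly expressed P450 gene, the 5 highest and 5 lowest in ChIP over input, called genes or else the 3 highest and 3 lowest in each genotype and serum comparison, and 11 genes listed by name, of which 1 is not reported here. CYP genes named at the RefSeq start beyond these, and the partner genes, were chosen after their values were seen. So were CYP17A1, CYP2C8 and CYP2C19 for genotype in 0.1% serum, which lie outside the rule for that comparison. Alternatives were library totals, peak-table totals, no filter, DESeq2 1.42.0, a replicate block, other window choices, all 8 ChIP libraries, input taken off and each library left out.

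Differences between letters A and B correlated by 0.003 to 0.010 between ChIP groups and by 0.014 to 0.106 between input groups. At these low counts such correlations cannot show whether the letters pair the samples. The main fits did not pair them. In 0.1% serum the wild-type inputs and the wild-type ChIP libraries were alike within counting noise across genes (chi-square test p 0.147 and 0.0922) but not across peaks (chi-square per degree of freedom 1.17 and 1.51), so each pair was kept as 2 libraries.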

Additional observations from a re-analysis of the deposited data

How the results depend on the processing

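Depth limits these results. A P450 gene had few ChIP reads per library, 1 group had 1 library and the ΔLEO1 cells were 1 clone, so a difference that missed the threshold was not shown to be absent. Ratios to input are relative to the scaling. With totals of the peak table all genes shifted (median −1.39 for ChIP over input, 0.30 for genotype in 0.1% serum and 0.25 over both sera), 0 genes were called higher and 53 lower, the hepatic and broadly expressed medians were −0.97 and −1.87, and genotype calls were 5 in 0.1% serum and 7 over both sera, all higher, beside 7.56% and 7.99% of all genes called higher. Under it ChIP over input turned negative in CYP3A5 (−0.84), CYP4B1 (−0.83), CYP1A2 (−0.58), CYP4F11 (−0.62), CYP4F12 (−0.62), CYP7B1 (−0.86), CYP1B1 (−1.33), CYP3A4 (−0.99), CYP2E1 (−0.97), CYP19A1 (−1.02), CYP24A1 (−1.31), CYP8B1 (−1.22) and CYP11B1 (−1.43). With library totals 8 genes were called lower, the medians were 0.68 and −0.24, and CYP27A1 was at 0.0758. With all distinct windows the hepatic median was 0.67, CYP27A1 was at 0.0602, CYP1A1 at 0.066, CYP11B1 at −0.24 and CYP17A1 at −0.0018 for serum. With the single most used window CYP51A1 was at 0.30, CYP27A1 at 0.075, CYP1B1 at −0.39 and CYP17A1 at −0.30 for serum. At the RefSeq start CYP27A1 was at 0.12, CYP1B1 at −0.20, CYP1A1 at 0.21, CYP11B1 at −0.36 and CYP17A1 at −0.25 for serum. With input taken off CYP7A1 was at −0.0687 for serum. The 1 genotype call over both sera became 0 with DESeq2, all distinct windows, the single window, the RefSeq start window, all 8 ChIP libraries and input taken off, and 0 to 1 when libraries were left out. The cause of these changes was not tested. Leaving out libraries gave −0.0589 to 0.0415 for CYP11B1 and −0.15 to 0.25 for CYP8B1 in ChIP over input, −0.13 to 0.97 for CYP20A1 in genotype, and −0.28 to 0.90 for CYP26A1 and −0.15 to 0.81 for CYP7A1 in serum. The sole ΔLEO1 library in 10% serum could not be left out of comparisons that need its group. With a replicate block the counts of P450 calls were the same, 23 higher and 13 lower against input and 1 over both sera (CYP4F12, edgeR adjusted p 0.0334).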

Other observations

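Of 50 CYP pseudogenes, which carry a P450 symbol that ends in P or a like form, 44 were measured on gene sums, and 23 were called higher in ChIP than in input and 2 lower, with a median log2 ratio of 0.42, beside 33.9% and 35.9% of all genes. At the RefSeq start windows 34 of 41 were called higher and 1 lower (median 0.58), beside 39.2% and 37.5% of all start windows, which is the same side as the hepatic genes. CYP2C58P, a CYP2C pseudogene, was called lower in ΔLEO1. It had 15.3 and 17.7 CPM (reads per 1000000) in wild type and 8.71 in ΔLEO1 in 10% serum, and 17.2 and 18.2 in wild type and 7.04 and 7.46 in ΔLEO1 in 0.1% serum. The 3 ΔLEO1 libraries were below the 4 wild-type libraries, and the log2 fold change was −1.15 ± 0.30 in 0.1% serum (edgeR adjusted p 0.0237) and −0.99 ± 0.26 over both sera (0.0139), beside 1.06% and 1.86% of all genes called. It was called under 5 of 16 alternatives in 0.1% serum and 11 of 17 over both sera (adjusted p 0.0237 to 1 and 0.0139 to 1, and 1 with DESeq2 in both), and in 0.1% serum the call was lost without any 1 of the 4 libraries compared (0.0943 to 0.26). Over both sera it was lost without wild-type replicate B in 10% serum (0.0704) or ΔLEO1 replicate A in 0.1% serum (0.0655). Its inputs differed by −0.18 ± 0.21. The gene was chosen after its values were seen, among 44 pseudogenes tested, and reads may be shared with its close copies.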
